A study of Mus musculus with 11 samples.

Results

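Binding of RFX2 was set against binding of RFX3, site by site, in mouse ependymal cells. The members were all 9318 peaks of the RFX3 list and the 1224 RFX2 peaks that shared at least 1 bp with an RFX3 peak, in all 10542 of the 18008 peaks of the 3 RFX lists of the study. An RFX3 peak had an RFX2 partner if any RFX2 peak shared at least 1 bp with it. This held for 1228 RFX3 peaks, and 8090 had none.

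The study mapped RFX1, RFX2 and RFX3 by chromatin immunoprecipitation and sequencing (ChIP-seq) in ependymal cells grown and differentiated outside the animal. All 11 samples came from wild-type OF1 mice, from the lateral walls of the brain, and the labels name no mutant allele or treatment; they call the tissue embryonic and give the age as P0. Each RFX had 2 ChIP samples, pulled down with an antibody of its own, and the RFX2 antibody was of a different lot in each sample. Input chromatin was sequenced in 2 samples for RFX2 and in 1 for RFX3. The labels do not give how many animals were pooled or what share of the cells became ependymal, and a peak list holds no expression from which the cell type could be checked.

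RFX factors contact DNA through a winged-helix domain and bind the X-box, an element built of inverted repeats of a short block, as monomers, homodimers or dimers with each other. RFX2 and RFX3 are close relatives that act together with Foxj1 in cells that build many motile cilia. Ependymal cells are such cells and move cerebrospinal fluid along the brain ventricles.

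For each RFX the authors deposited 1 list of peaks, already merged over its ChIP samples. No value here therefore has a replicate error, no difference could be set against the spread between replicates, and no test was made. The sources used here do not state how many reads lay behind a list, so the depth is unknown. Intervals on shares are 95% exact Clopper-Pearson intervals and those on medians are 95% exact order-statistic intervals; both cover the counting of peaks only. Peaks were ranked within a list by the deposited −log10 q, the strength of the call, with rank 1 the best. A site without a listed RFX2 peak was not called for RFX2, which is not evidence that RFX2 was absent. The RFX2 list ended at a −log10 q of 18.2 and the RFX3 list at 8.87.

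The sites can be read in the promoters of genes with strong peaks. The X-box was searched as GTNNCC and GGNNAC with 0 to 3 bases between them. That pattern reads the same on both strands. The stretches below lie before an annotated start, on the strand of the gene, in RefSeq sequence of GRCm38.p6; capitals mark the X-box with its spacer. Each set holds the 6 best promoters (by the sum of the 2 ranks with RFX2, by the RFX3 rank without) with exactly 1 X-box, all of it before the start, and was picked after the values were seen. The first set has RFX3 and RFX2.
Fez1, chr9:36821799-36821858, plus strand: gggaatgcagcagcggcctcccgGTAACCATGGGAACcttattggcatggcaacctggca
Tmx4, chr2:134644228-134644287, minus strand: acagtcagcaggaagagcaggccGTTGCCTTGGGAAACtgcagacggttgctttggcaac
Pifo, chr3:106001498-106001540, minus strand: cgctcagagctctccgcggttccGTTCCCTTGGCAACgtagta
Tctn2, chr5:124598664-124598723, plus strand: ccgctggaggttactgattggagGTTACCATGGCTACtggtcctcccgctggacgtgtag
Gm30908, chr2:166471345-166471404, plus strand: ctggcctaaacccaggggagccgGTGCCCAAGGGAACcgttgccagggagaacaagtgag
Lrriq1, chr10:103236323-103236364, minus strand: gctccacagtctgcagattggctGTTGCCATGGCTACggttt
The next set has RFX3 without RFX2.
Gm9530, chr1:155083387-155083446, minus strand: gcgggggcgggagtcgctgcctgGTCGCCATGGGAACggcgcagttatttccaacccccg
Tm4sf1, chr3:57302032-57302091, minus strand: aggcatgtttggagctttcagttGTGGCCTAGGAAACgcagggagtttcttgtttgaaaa
Gm29805, chr16:92382686-92382745, minus strand: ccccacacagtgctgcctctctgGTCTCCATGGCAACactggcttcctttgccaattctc
Srek1, chr13:103774621-103774680, minus strand: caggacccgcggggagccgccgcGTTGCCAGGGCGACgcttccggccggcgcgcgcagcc
Phc2, chr4:128654530-128654589, plus strand: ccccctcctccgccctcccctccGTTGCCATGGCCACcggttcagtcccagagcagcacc
Ralgapa1, chr12:55821168-55821221, minus strand: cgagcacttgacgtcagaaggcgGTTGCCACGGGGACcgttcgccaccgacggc
An X-box with a spacer of 2 bases stands in 5 promoters of the first set and in all 6 of the second. The choice of the sets gave every promoter 1 X-box, so they differ in its letters and not in its presence. In the first set the spacer of Tmx4 has 3 bases. The RFX3 ranks of the first set ran from 15 for Fez1, a kinesin adaptor gene, to 179 for Lrriq1. Those of the second ran from 180 for the predicted gene Gm9530 to 331 for Ralgapa1, a Ral GTPase-activating protein gene.

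Ranked by −log10 q, the strongest RFX3 sites most often had RFX2, and the share fell quickly down the RFX3 list. Over the whole list 13.2% of RFX3 peaks had an RFX2 partner (1228 of 9318, interval 12.5 to 13.9). In the other direction 97.9% of RFX2 peaks had RFX3 (1224 of 1250, interval 97.0 to 98.6). All of the best 50 RFX3 peaks had RFX2; with 0 of 50 without it, the limit of 3 counts allows a share without RFX2 of 6%, and the exact interval reaches 7.11%. The share without RFX2 was 12% of the best 100 (6.36 to 20.02) and 24.4% of the best 500 (20.7 to 28.4). Among the best 1250, as many as the RFX2 list holds and called high-rank here, 526 peaks or 42.1% (39.3 to 44.9) lacked RFX2 and 724 had it. Ranked by fold enrichment, 862 of the best 1250 lacked RFX2 (69.0%, 66.3 to 71.5).

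In steps of 250 peaks, which were chosen after the data were seen, the share of RFX3 peaks with RFX2 was 84.0% (78.9 to 88.3), 67.2% (61.0 to 73.0), 57.6% (51.2 to 63.8), 47.2% (40.9 to 53.6) and 33.6% (27.8 to 39.8). Each of the 5 steps was lower than the one before, though the interval of 57.6% overlapped those of both neighbouring steps. Over the same 5 steps an RFX1 peak overlapped 99.6%, 96.8%, 98.8%, 97.6% and 94.4% of RFX3 peaks, against 59.3% over the whole RFX3 list, but the RFX1 list is longer, with 7440 peaks against 1250. Cut to its best 1250 peaks, RFX1 overlapped 79.6%, 66.8%, 56.8%, 45.6% and 33.6% in these steps, each within the interval of the RFX2 share. Over the best 1250 RFX3 peaks it then overlapped 706 (56.5%, 53.7 to 59.3), against 724 for RFX2. At equal list length no difference between RFX1 and RFX2 in this fall could be seen.

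**Figure D1:**
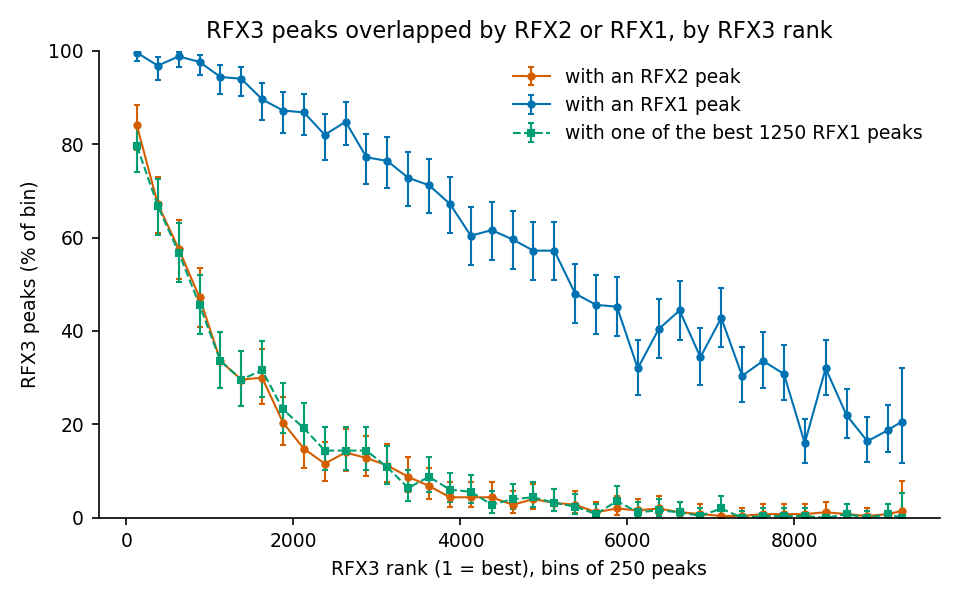
Share of RFX3 peaks in percent (vertical axis) that overlapped an RFX2 peak, an RFX1 peak, or 1 of the best 1250 RFX1 peaks, in steps of 250 peaks by RFX3 rank (horizontal axis, best at left; the last step is shorter); bars are 95% exact intervals that cover the counting of peaks only. The RFX2 share falls from 84.0% to 33.6% over the first 5 steps, and the share with the best 1250 RFX1 peaks from 79.6% to 33.6%; the curve of all 7440 RFX1 peaks is higher but comes from a longer list.

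Seen from RFX2, the better the RFX2 peak, the better its RFX3 partner. The median RFX3 rank of the partners was 307 for the best 250 RFX2 peaks and then 760.5, 1128.5, 1327 and 1612.5 for the following steps of 250. Of the same 5 steps, 88.0%, 64.0%, 51.6%, 46.0% and 40% overlapped one of the best 1250 RFX3 peaks. The share with any RFX3 partner was between 97.2% and 98.8% in every step. The heads of the lists overlapped in part: 4 sites were among the best 10 of both lists, 43 among the best 100 of both and 253 among the best 500 of both.

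RFX2 and RFX3 peaks were joined into 1224 pairs, each RFX2 peak with the overlapping RFX3 peak of nearest summit. Only 4 RFX2 peaks overlapped more than 1 RFX3 peak, and no RFX3 peak overlapped more than 1 RFX2 peak. Over the pairs, which share the chromatin and the mappability of their site, ranks correlated with a Spearman's rho of 0.463 (n = 1224 sites, not replicates). Ranks by fold enrichment gave 0.495. The rho was 0.420 at gene ends, 0.469 inside genes and 0.483 outside genes. At the 1221 pairs with an RFX1 peak, rho was 0.592 for RFX1 with RFX2 and 0.451 for RFX1 with RFX3. Ranked anew among the pairs, so that both ranks run to the same number, 311 pairs (25.4%, 23.0 to 27.9) differed by at most 100 places. More than 500 places separated 222 pairs, of which 103 were better in RFX2 and 119 better in RFX3.

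**Figure D2:**
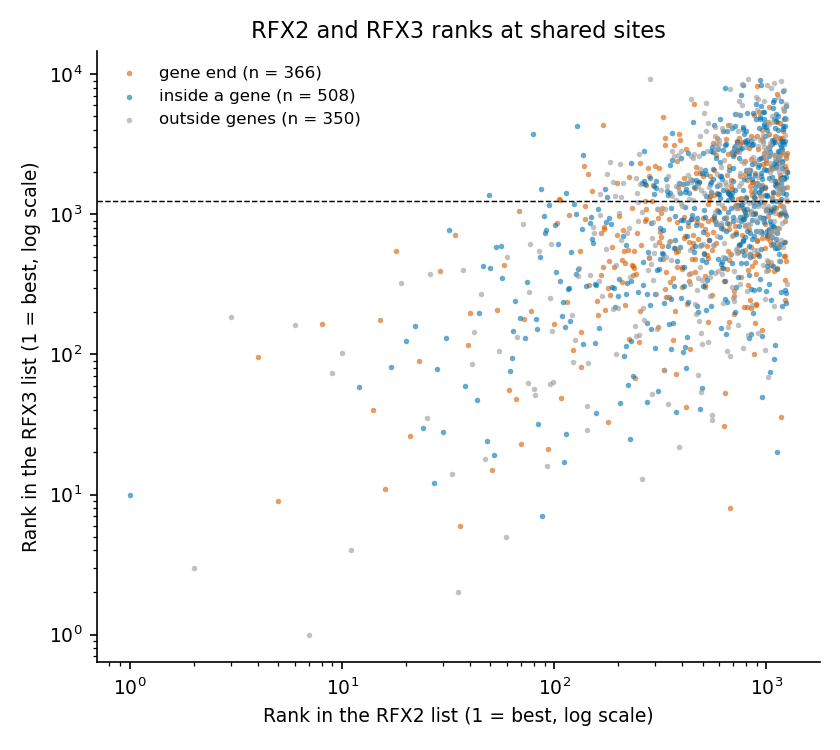
Rank in the RFX3 list (vertical axis) against rank in the RFX2 list (horizontal axis) for the 1224 pairs, both on log scales with the best at 1; colour gives the place of the RFX3 summit and the dashed line is RFX3 rank 1250. Pairs at gene ends, inside genes and outside genes are spread over the same range, and 724 of the pairs lie at or below the line.

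The best pairs at gene ends were picked by the smallest sum of their ranks in both lists. That their genes stood high in both lists follows from this choice. A gene end is here either annotated end of a protein-coding gene, and a summit within 1 kb counted as at it. A pair on chromosome 3 shared by 4933434E20Rik and 1700094D03Rik ranked 5 in RFX2 (fold enrichment 30.9) and 9 in RFX3 (fold 48.2), with summits 22 bp apart. Mapre3, which encodes a protein of growing microtubule ends, ranked 16 in RFX2 (fold 23.1) and 11 in RFX3 (fold 18.3). Cfap65, a gene of the central apparatus of the axoneme, ranked 36 in RFX2 (fold 27.2) and 6 in RFX3 (fold 40.03). These 3 sites, and those at Fbxl19 and Sema4b named next, stood within the best 40 of both lists. The pair at Fbxl19, an F-box gene, and its neighbour Orai3, a calcium channel gene, ranked 21 and 26. Sema4b, a semaphorin gene, ranked 14 in RFX2 and 40 in RFX3. Fez1 ranked 51 and 15, and Ttll10, which encodes a tubulin polyglycylase, ranked 70 and 23. Tmx4, a thioredoxin-related membrane protein gene, ranked 4 in RFX2 and 96 in RFX3, with both summits at the same base. Thbs3, a thrombospondin gene, ranked 23 and 90, and 1110051M20Rik ranked 93 and 21.

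Other pairs at gene ends stood far apart in the lists. Sik1, a salt-inducible kinase gene on chromosome 17, ranked 36 in RFX3 (−log10 q of 159.313) and 1178 in RFX2 (19.1). Its RFX2 peak was the narrower, with 199 bp against 247 bp. Ccdc188 ranked 244 in RFX3 and 1219 in RFX2. Morn4 ranked 339 and 1220, Eif4a3, a helicase gene of the exon junction complex, 465 and 1243, and Fgd3, a gene for an exchange factor of Cdc42, 501 and 1223. In the other direction, Kti12 on chromosome 4 ranked 170 in RFX2 (fold 17.4) and 4324 in RFX3 (fold 4.88). The pair inside Atp6v1d, a proton pump gene, 433 bp from its end by the RFX3 summit, was also within 1 kb of an end of Eif2s1, a translation initiation factor gene; it ranked 325 in RFX2 and 4929 in RFX3. Dusp6, which encodes an ERK phosphatase, ranked 138 and 2225. The pairs shared by Iqcg with Rpl35a and by Hsp90b1 with Ttc41 ranked 332 and 144 in RFX2 and 3488 and 1955 in RFX3. At these 5 pairs the RFX1 peak ranked between 178 and 373 in its list, and at the 5 pairs better in RFX3 between 603 and 1145.

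Paired summits lay close together. The median distance was 18 bp (16 to 19) and the middle 50% of pairs lay between 7.75 and 32 bp. The distance was at most 10 bp in 394 pairs, at most 50 bp in 1084 (88.6%, 86.6 to 90.3) and at most 100 bp in 1201, and 21 pairs had the same base. In all 1224 pairs each summit lay inside the peak of the other factor. Along the chromosome the shift had no side, with RFX3 at the higher coordinate in 598 pairs and a median shift of 0 bp (−2 to 2). Along genes it had a small one. In 344 pairs both summits were within 1 kb of the same annotated start, and RFX3 was downstream of RFX2 in 199 (57.8%, 52.4 to 63.1), upstream in 138 and equal in 7. The median shift there was 3 bp downstream (2 to 7). The RFX2 summits had a median position of −45.5 bp from the start (−61 to −33) and the RFX3 summits of −34 bp (−52 to −24); the minus sign means before the start.

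The largest distance was 780 bp, on chromosome 8 near Zswim4, where the RFX2 peak was 1216 bp wide and the RFX3 peak 1173 bp. A pair inside Dlg4, which encodes the postsynaptic scaffold PSD-95, had summits 472 bp apart, with the RFX2 peak at rank 112 and the RFX3 peak at rank 157. Next came a site near Otud1 with 379 bp, one inside Sema6d with 331 bp and one inside Megf11 with 268 bp. In these 5 pairs both peaks were wider than 550 bp. Pairs picked for distant summits, each inside the other peak, need wide peaks. None of the 5 lay at a gene end, against 366 of all 1224 pairs.

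RFX2 peaks were wider than their RFX3 partners. The median width was 417 bp (406 to 426) for RFX2 and 340 bp (334 to 348) for RFX3. The median ratio within pairs was 1.22 (1.19 to 1.26), and the middle 50% ran from 0.984 to 1.56. The RFX2 peak was the wider in 900 pairs (73.5%, 71.0 to 76.0) and the RFX3 peak in 320. The RFX3 peak lay wholly within the RFX2 peak in 635 pairs (51.9%), and the reverse held in 158. From the best to the last quartile of pairs by RFX2 the median ratio was 1.47, 1.24, 1.12 and 1.08. By RFX3 quartile it was 1.18, 1.14, 1.21 and 1.33. Each sorting also sorted the widths of its own list. The median RFX2 width went from 585.5 to 335.5 bp over the RFX2 quartiles, and the median RFX3 width from 412 to 278 bp over the RFX3 quartiles. The ratios by quartile therefore cannot be read apart from the sorting. By place the median ratio was 1.21 at gene ends, 1.26 inside genes and 1.18 outside genes, with overlapping intervals. Width depends on the depth and the settings behind each list, and their part in the ratio was not tested.

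**Figure D3:**
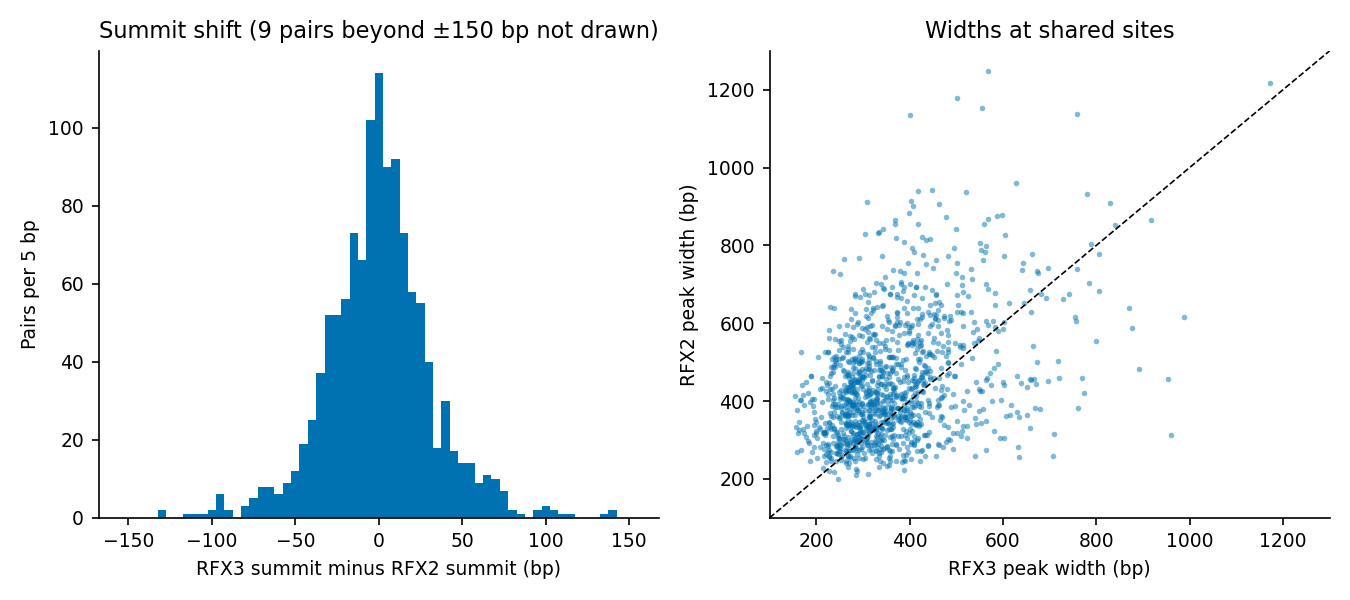
Left, number of pairs per 5 bp (vertical axis) by RFX3 summit minus RFX2 summit in bp along the chromosome (horizontal axis); right, RFX2 width against RFX3 width in bp for the 1224 pairs, with equal widths on the dashed line. The shifts centre on 0 bp, and 900 pairs lie above the line.

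The best RFX3 site without RFX2 stood at rank 65, inside the formin gene Diaph1 at chr18:37851930-37852413 (GRCm38), with a fold of 32.5 and a −log10 q of 138.279; an RFX1 peak of rank 1013 overlapped it. The next was at chr6:37589566-37589957, 14894 bp from Akr1d1, a steroid reductase gene, at rank 66. Rank 67 was inside Dgki, a diacylglycerol kinase gene (chr6:37216265-37216812, fold 32.7), rank 72 inside Nr2f2, an orphan nuclear receptor gene (chr7:70361547-70361955, fold 12.2), and rank 83 inside Ptprn2, a receptor-type phosphatase gene (chr12:116938102-116938778, fold 38.4). All 5 had an RFX1 peak, with RFX1 ranks from 1013 to 2994. None of the 5 lay within 1 kb of a gene end. The nearest RFX2 summit was between 215932 and 2823655 bp away.

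Of the genes at the 15 best RFX3 peaks without RFX2 at a gene end, Dync2li1 was the only one in the ciliary lists described below. Those lists held 16 of all 157 genes with a high-rank RFX3 peak at an end and no RFX2. Cwf19l2, a gene related to pre-mRNA splicing, came first at rank 84 (chr9:3403730-3404281, fold 30.9, summit 400 bp from the end). Dync2li1, which encodes a light intermediate chain of the dynein that drives retrograde intraflagellar transport, followed at rank 89 (chr17:84626330-84626724, fold 11.8, summit at the end itself). Its RFX1 peak ranked 177, the best of the 15 in that list. Glipr1l1 at rank 91 (fold 23.0) and Ccdc158 at rank 94 (fold 12.4) had summits 3 and 59 bp from an end. After these 4 the next stood at rank 257, Cd63, a tetraspanin gene (fold 12.3). Nacad (rank 258), the splicing gene Srek1 (288), Irak1bp1 (293), the Polycomb group gene Phc2 (324) and the anoctamin gene Ano3 (326) followed. The last 5 of the 15 were Lix1 (327, fold 30.2), Ralgapa1 (331), a peak shared by Cops2, a COP9 signalosome gene, and Galk2 (341), Rhbdd2 (343) and Fkbpl (349). All 15 had an RFX1 peak, with ranks from 177 to 2966. In all, 136 high-rank peaks without RFX2 lay at the ends of 159 genes, and 132 of the 136 had an RFX1 peak.

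At the rank limit itself the call turned on small differences. Inside were rank 1248 at the end of Spag8, a sperm-associated antigen gene, with RFX2, rank 1249 in Trim44 without RFX2 and rank 1250 near Lcorl with RFX2. Outside were rank 1251 in Cbx7 with RFX2, and ranks 1252 in Rgs7 and 1253 in Cubn without. Ranks 1249 and 1250 were tied at a −log10 q of 54.88, and the peak after them had 54.873.

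No RFX2 peak stood beside most of these sites. For the 526 high-rank peaks without RFX2 the median distance to the nearest RFX2 summit was 451060 bp. In 7 it was under 10 kb and in 1 under 1 kb, at 916 bp. The RFX2 peak names carry running numbers in genome order, up to 3493, of which the list holds 1250; the others are read here as peaks called but not kept as reproducible. Listed neighbours with consecutive numbers leave no room for an unkept RFX2 peak. Such intervals made up 10.02% of the length between listed RFX2 peaks and held 20 of the 505 high-rank peaks without RFX2 that lay between listed RFX2 peaks, or 8.12 per 100 Mb. Intervals with at least 1 missing number held 485, or 21.9 per 100 Mb. For lower-rank RFX3 peaks without RFX2 the densities were 285 and 299 per 100 Mb. How many of the high-rank sites had an unkept RFX2 peak cannot be counted from the list. This comparison was chosen after the data were seen.

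High-rank RFX3 peaks lay at gene ends somewhat less often where RFX2 was missing. Over all RFX3 peaks 16% were at a gene end. Among high-rank peaks it was 25.9% without RFX2 (136 of 526, 22.2 to 29.8) and 33.0% with RFX2 (239 of 724, 29.6 to 36.6), and the intervals just overlapped. The remainder without RFX2 were 37.8% inside genes and 36.3% outside; with RFX2 they were 39.6% and 27.3%. Among lower-rank peaks the gene-end share was 13.01% without RFX2 (12.3 to 13.8) and 25.6% with it (21.8 to 29.6). Those groups were not matched for rank: the median RFX3 rank was 5497.5 without RFX2 and 2343.5 with it. In the best 250 RFX3 peaks, 4 of 40 without RFX2 and 59 of 210 with it were at a gene end. In the next 4 steps of 250 the shares ran from 24.1% to 29.5% without and from 31.4% to 40.3% with RFX2.

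RFX3 fold enrichment did not follow rank in the same way. Its median was 14.8 (13.6 to 16.1) in high-rank peaks without RFX2 and 10.9 (10.1 to 12.02) in those with it. By place the medians were 7.11 without and 7.08 with RFX2 at gene ends, 17.2 and 13.3 inside genes, and 18.9 and 20.8 outside genes. Within each of the 3 places the intervals overlapped, and outside genes the order was the reverse. The fold was lower at gene ends in both groups. With ranks by fold in place of −log10 q, 4.18% of the high-rank peaks without RFX2 were at a gene end.

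Where high-rank RFX3 lacked RFX2, RFX1 was nearly always present but weaker. An RFX1 peak overlapped 494 of 526 (93.9%, 91.5 to 95.8), against all 724 with RFX2. The median RFX1 −log10 q was 50.9 (46.2 to 54.5) without RFX2 and 104 (101 to 108) with it. The gap held within steps of 250 RFX3 ranks: the median was 59.1 without against 131 with RFX2 in the best 250, and 45.5 against 85.1 in the fifth step. At gene ends alone the medians were 70.3 without and 124 with RFX2, and away from gene ends 44.2 and 94.2. Lower-rank RFX3 peaks with RFX2 also had stronger RFX1, with a median of 75.3, than high-rank RFX3 peaks without it.

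**Figure D4:**
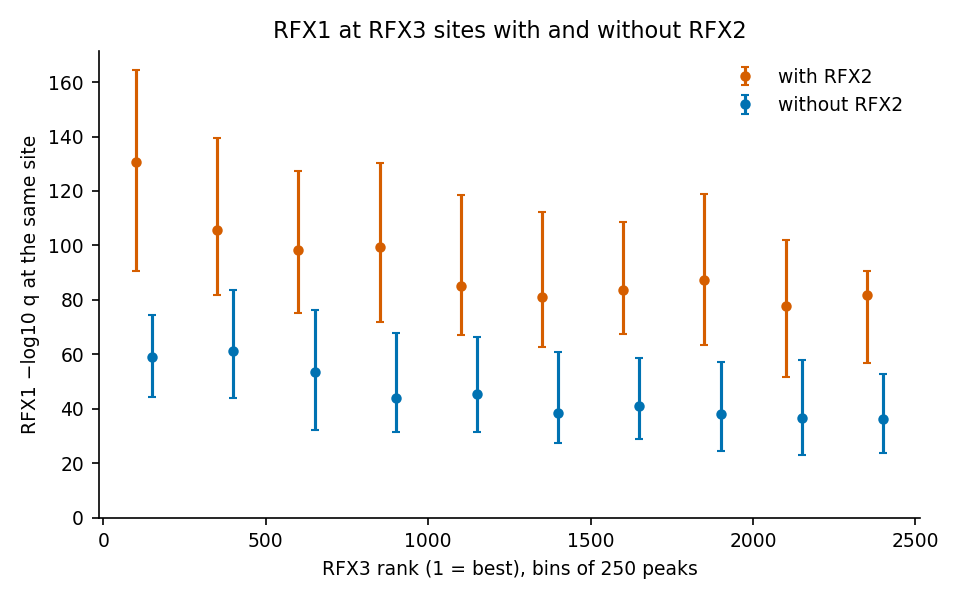
Median RFX1 −log10 q at the same site (vertical axis, points) with the middle 50% of peaks (bars) for RFX3 peaks with and without RFX2 that had an RFX1 peak, in steps of 250 by RFX3 rank (horizontal axis; the groups are drawn slightly apart). In each of the 10 steps shown the median with RFX2 is above that without.

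The presence of RFX2 followed the RFX1 rank within both classes of RFX3 rank. Of RFX3 peaks of high rank, 82.7% (584 of 706, 79.7 to 85.4) had RFX2 where the RFX1 peak was also among the best 1250 of its list, and 27.3% (140 of 512, 23.5 to 31.4) where it ranked lower. Of 32 without an RFX1 peak none had RFX2; for 0 of 32 the limit of 3 counts is 9.375%, and the exact interval reaches 10.9%. Of lower-rank RFX3 peaks, 50.3% (270 of 537, 46.0 to 54.6) had RFX2 with a high-rank RFX1 peak, 6.12% (231 of 3772) with a lower-rank one and 3 of 3759 with none. These classes were formed after the data were seen. All 3 lists come from the same kind of cells, and depth, antibody strength and list length were not separated from them.

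At promoters, windows with RFX2 differed from those without less in the X-box than in its 6-letter block. The windows run from 250 bases before to 50 after a start and were read from RefSeq; a block is GTTGCC on either strand and may be part of an X-box. An X-box was in 3.86% of all 32851 windows and a block in 12.5%; without any RFX3 summit it was 3.004% and 11.4%. In windows with a high-rank RFX3 summit, an X-box was in 40.6% of 187 with RFX2 (33.5 to 48.1). Without RFX2 it was in 41.2% (42 of 102, 31.5 to 51.4). A block was in 73.8% (66.9 to 79.9) with RFX2 and in 52.0% (41.8 to 62.0) without. A block with no X-box was in 36.9% with RFX2 and 17.6% without, and 2 or more blocks were in 21.4% and 12.7%. In windows with a lower-rank summit an X-box was in 31 of 100 with RFX2 and in 26.6% of 605 without, and a block in 48.0% and 38.8%. Of the stretches printed above, 5 of 6 with RFX2 and 4 of 6 without hold the block. Windows of neighbouring genes can overlap and share a site.

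The letters of the X-boxes were compared in windows with exactly 1, taken over all ranks first. These windows numbered 94 with both summits and 198 with RFX3 alone. At least 11 of the 12 letters outside the spacer were those of GTTGCC and GGCAAC in 48.9% with RFX2 (38.5 to 59.5) and in 27.3% without (21.2 to 34.0). Among high-rank peaks these shares were 56.7% of 67 and 31.7% of 41, and among lower-rank peaks 29.6% of 27 (13.8 to 50.2) and 26.1% of 157 (19.4 to 33.7), with overlapping intervals in both classes. High-rank peaks made up 67 of the 94 windows with RFX2 and 41 of the 198 without. A spacer of 1 base was found in 7 of 94 with RFX2 (7.45%, 3.05 to 14.7) and in 40 of 198 without (20.2%, 14.8 to 26.5). A spacer of 2 bases was found in 85.1% and 72.7%, and of 0 bases in none. Among high-rank peaks the spacer of 1 base was in 4 of 67 and 5 of 41, with overlapping intervals. The summits mostly lay near the motif: within 20 bp of its centre were 74.5% of the RFX3 and 72.3% of the RFX2 summits in windows with both, and 67.2% of the RFX3 summits without RFX2. With both summits, the median distance to the centre of the X-box was 9.25 bp (6.5 to 14.5) for RFX3 and 12 bp (8.5 to 15.5) for RFX2, and the RFX3 summit was the nearer in 48 windows and the RFX2 summit in 40. Without RFX2 it was 13.25 bp (10.5 to 16.5) for RFX3. A motif match is a description of letters, and the search and its classes were chosen after the data were seen.

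Counted by gene over the whole RFX3 list, most genes with RFX3 had no listed RFX2, ciliary genes included. The RFX2 list is much the shorter, with 1250 peaks against 9318. An RFX3 summit lay within 1 kb of an end of 1738 of 21887 protein-coding genes (7.94%) and an RFX2 summit at 455 (2.08%). Both were at 451 genes, 25.9% of the RFX3 genes, and 1286 had RFX3 without RFX2. The 11 ciliary lists held 194 genes, of which 128 had RFX3 (66.0%), 49 had both (38.3% of the 128, 29.8 to 47.3) and 79 had RFX3 without RFX2. The median best RFX3 rank was 1629 in these 128 genes and 2766.5 in all RFX3 genes. Among genes with a high-rank RFX3 peak, 16 of 50 ciliary genes lacked RFX2 (32.0%), against 157 of 453 genes in all (34.7%). Most genes at high RFX3 rank thus had RFX2, 34 of the 50 ciliary genes and 295 of the 453 in all. Of the 79 ciliary genes without RFX2, 74 had RFX1, as had 1055 of the 1286 such genes among all protein-coding genes.

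**Figure D5:**
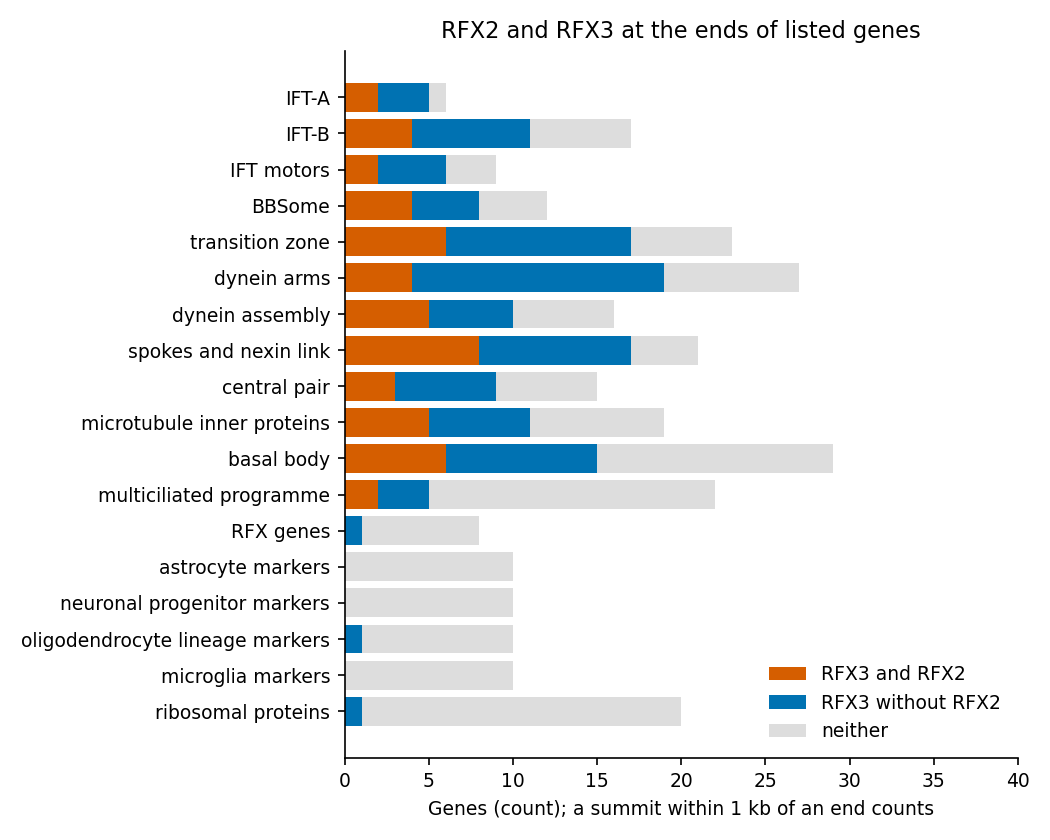
Number of genes per list (horizontal axis) with RFX3 and RFX2, with RFX3 without RFX2, or with neither within 1 kb of an end, for the 18 lists (vertical axis). Every ciliary list has genes of both kinds, and the lists of other cell types have none with RFX2.

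Intraflagellar transport carries cargo along the axoneme in trains of complexes A and B. In complex A, 2 of 5 RFX3 genes also had RFX2: Ift122 (RFX3 rank 386, RFX2 rank 336) and Wdr35 (986 and 1159). Ift140 (RFX3 rank 2946), Wdr19 (5426) and Ift43 (5721) had RFX3 without RFX2. The genes without RFX2 thus stood far down the RFX3 list. In complex B, 4 of 11 had both, among them Ttc26 (413 and 1121), Traf3ip1 (578 and 989) and Ift22 (950 and 409). Ift52 at rank 790 was the high-rank gene without RFX2, before Ift81 (1393), Ttc30b (1657) and Ift88 (2507). Of the motors, the dynein-2 chain genes Wdr34 (490 and 280) and Tctex1d2 (643 and 351) had both factors. The dynein-2 genes Dync2li1 (rank 89) and Wdr60 (418) had RFX3 without RFX2 at better RFX3 ranks, as had the kinesin genes Kif17 (3734) and Kif3b (3743) at poorer ones. Genes of 1 motor complex therefore stood on both sides.

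The BBSome is a coat for membrane proteins of the cilium, and 4 of its 8 RFX3 genes had RFX2. These included Arl6 (RFX3 rank 303, RFX2 rank 402), Bbs1 (311 and 146) and Bbs12 (396 and 1090), whose pair is also that of its neighbour Cetn4. Bbs4 (1579), Bbs9 (2156), Bbs7 (6183) and Ttc8 (7304) lacked RFX2, so all 4 high-rank genes had it. At the transition zone, the gate at the base of the cilium, 6 of 17 had both: Tctn2 (82 and 134), Tctn1 (314 and 513) and Mks1 (406 and 401) ranked best. Of its 6 high-rank genes only Ahi1 at rank 1238 lacked RFX2. Tmem216 (1442) and Tmem231 (1658) also lacked it.

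Dynein arms, which bend the axoneme, had the lowest share among the ciliary lists: 4 of 19 RFX3 genes had RFX2 (21.1%, 6.05 to 45.6), with an interval that includes the 38.3% of the ciliary lists together. Efcab1 (RFX3 rank 574, RFX2 rank 369) and Ccdc151 (924 and 346), both of outer arm docking, and the intermediate chain gene Wdr78 (1006 and 1231) had both. The heavy chain genes Dnah12 (365, fold 29.4), Dnah10 (948) and Dnah5 (1056) and the intermediate chain gene Wdr63 (799) were high-rank without RFX2. With Dnah11 (1176), named after its value was seen, 5 of 8 high-rank dynein arm genes lacked RFX2. Over the ciliary lists it was 16 of 50 and over all genes 157 of 453 (34.7%). With 8 genes this difference was not tested. Among the factors that assemble the arms, 5 of 10 had both, with Lrrc6 (263 and 706), Dnaaf3 (425 and 236) and Cfap298 (708 and 34) the best. Zmynd10 (563) was the high-rank one without RFX2, and Pih1d2 (1366), Ruvbl1 (2159) and Dnajb13 (3448) followed.

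Radial spokes and the nexin link, which couple the outer doublets to the centre and to each other, had both factors at 8 of 17 RFX3 genes. The best were Rsph4a (68 and 241), Ccdc65 (126 and 363) and Ccdc39 (330 and 352). Drc1 (701), Cfap61 (718), Ccdc40 (1678) and Drc7 (2103) had RFX3 without RFX2. In the central pair 3 of 9 had both, Cfap65 (6 and 36), Hydin (73 and 376) and Spef2 (129 and 225). Cfap70 (497, fold 21.2), Spef1 (503), Cfap69 (933) and Spag16 (2334) lacked RFX2. The 3 best central pair genes in RFX3 were thus the 3 with RFX2.

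Microtubule inner proteins, which line the inside of the doublets, had both factors at 5 of 11 RFX3 genes, led by Cfap20 (242 and 159), Enkur (397 and 29) and Cfap52 (426 and 858). Tekt1 (965) was high-rank without RFX2, and Ribc2 (1254) and Cfap45 (1766) also lacked it. Of 15 basal body genes with RFX3, 6 had both, among them Cep19 (627 and 451), Cep162 (920 and 557) and the distal appendage gene Fbf1 (1717 and 1098). Cetn2 (1309), the subdistal appendage gene Odf2 (1465) and Sclt1 (1757) had RFX3 without RFX2.

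Most genes of the multiciliated programme list had neither factor at an end. RFX3 was at an end of 22.7% of its genes and RFX2 of 9.09%. Over all protein-coding genes these shares were 7.94% and 2.08%. Of 22 genes, 2 had both factors at an end: Foxj1, the master regulator of motile cilia (RFX3 rank 256, RFX2 rank 349, summits 23 bp apart), and the centrin gene Cetn4. Deup1, a gene of the deuterosome on which centrioles multiply, had RFX3 without RFX2 at rank 2008, Ccno at 2861 and E2f5 at 2965. The other 17, Mcidas, Gmnc, Myb, E2f4, Tfdp1, Cdc20b, Plk4, Cep152, Cep63, Stil, Sass6, Cep78, Trp73, Foxn4, Ccdc78, Mcc and Hoatz, had neither at an end; Mcc is not a gene of this programme and was listed in error. Gmnc, which encodes the upstream regulator GemC1, had a pair inside the gene, at RFX3 rank 202 and RFX2 rank 474. Trp73 had an RFX3 peak of rank 4851 inside and no RFX2, Hoatz had 1 of rank 8455, and Mcc had 2, the better of rank 8084, also without RFX2. The nearest RFX3 summit to Mcidas was 5992 bp away and the nearest RFX2 summit 639227 bp.

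Of the RFX genes themselves, Rfx2 had an RFX3 peak at an end without RFX2, and 4 of the 8 genes had sites inside. The Rfx2 peak at chr17:56830852-56831358 ranked 816 in RFX3 with a fold of 7.99. Inside Rfx2, pairs ranked 593 in RFX3 and 56 in RFX2, and 847 and 186, and an RFX3 peak of rank 1621 had no RFX2. Inside Rfx1 a pair ranked 159 in RFX3 and 22 in RFX2, beside an RFX3 peak of rank 8517 without RFX2. Rfx3 held pairs at 132 and 31 and at 865 and 147, and an RFX3 peak of rank 5285 without RFX2. Rfx4, an RFX gene of neural progenitors and astrocytes, held pairs at 2667 and 137 and at 4296 and 128, and an RFX3 peak of rank 6232 without RFX2. The summits of these 7 pairs lay between 1 and 32 bp apart. Rfx5, Rfx6, Rfx7 and Rfx8 had no peak of either factor at an end or inside.

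Few markers of other cell types had a site at an end, as did few protein-coding genes in all (7.94% for RFX3 and 2.08% for RFX2), and counts this small cannot be told apart from that background. Of 10 markers each of astrocytes, neuronal progenitors, oligodendrocyte lineage and microglia, only the myelin gene Mag had RFX3 at an end (rank 7284), and none had RFX2. Of 20 ribosomal protein genes, taken as widely expressed genes, Rps2 had RFX3 (rank 7616) and none had RFX2. Only gene ends were counted, and the counts say nothing of the cells present.

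RFX2 peaks without RFX3 numbered 26 (2.08%, 1.36 to 3.03). Of these, 16 (61.5%, 40.6 to 79.8) overlapped an RFX1 peak, against 1221 of the 1224 pairs, counted there by the RFX3 peak. The best was at chr17:4626154-4626715, 367916 bp from Arid1b, a chromatin remodelling gene, at RFX2 rank 13 with a fold of 30.5. The next were at chr1:136590997-136591742 near Zfp281 (rank 185, fold 19.5) and at chr11:25099982-25100330, 926603 bp from Bcl11a (rank 239, fold 15.5). The nearest RFX3 summit to any of the 26 was 970 bp away. Part of the set was weak: 5 of the 26 had a fold under 4 (19.2%). In the pairs, percentile 5 of the RFX2 fold was 6.54. The RFX2 share of RFX3 peaks by chromosome ran from 6.88% on X (13 of 189, 3.71 to 11.5) to 17.0% on 11 (100 of 587, 14.1 to 20.3).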

How the data were processed

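RFX1, RFX2 and RFX3 were measured by ChIP-seq in 6 ChIP and 5 input samples, and 1 merged peak list per RFX was used. Per the submitters' processing notes the tools were MACS2 2.0.10.20130520, CASAVA 1.8.2 and Bowtie 0.12.7, with build GRCm38 and no roles stated. How peaks qualified as reproducible was not given in the sources used here, nor which input served each list. The authors' deposited fold enrichment was read as a ratio of ChIP to background, and their deposited −log10 q as the strength of the call. The deposited score equals the whole part of 10 times that −log10 q in every peak, so it was not used apart, and 1 further value column per list was not used. Depth per sample is unknown, and intervals (95%) cover counting only.

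Peaks were joined with Python 3.11.15, pandas 2.3.3, NumPy 2.4.6 and SciPy 1.17.1 (figures: matplotlib 3.10.9), checked on simulated lists. Overlap meant at least 1 shared bp; ties in rank were settled by fold. Genes, starts and promoters came from RefSeq tables of GRCm38.p6: 21887 protein-coding genes, 17492 of them with a start in the promoter table, which does not cover all genes. No genome was used, so no sequence of sites away from promoters was read.

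Members, lists and tests were chosen with earlier results of these data known. Of 320 entries in 18 gene lists, 30 did not match; 284 genes did. Genes were named by rule: the 15 best RFX3 peaks without RFX2 at a gene end, the 10 best pairs, the 5 largest rank gaps each way, and per list up to 4 genes without and 3 with RFX2 (a few are not reported here); sites were the 5 best without RFX2, the 5 largest summit distances, 3 on each side of the rank limit and the 3 best RFX2 peaks without RFX3. Promoters shown, steps of 250, RFX1 classes and motif classes were chosen after values were seen. Alternatives changed overlap, ranking, list length, fold minimum and gene window.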

Additional observations from a re-analysis of the deposited data

How the results depend on the processing

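No paired analysis was possible because each list was merged over its replicates, so neither a replicate block nor leaving out a replicate could be fitted. The share of RFX3 peaks with RFX2 was 11.9% with an overlap of at least 50% of both peaks, and 57.9% with the RFX3 list shortened to 1250 peaks, by construction the same as the RFX2 share. The share of RFX2 peaks with RFX3 was 89.0% with 50% overlap, 96.1% with summits within 100 bp, 57.9% with the shortened list and 92.8% with folds of at least 4. RFX3 peaks of high rank without RFX2 numbered 122 in the best 500, 322 in the best 10% and 862 by fold. With the RFX1 list cut to 1250 peaks, a choice made after the data were seen, 56.5% of high-rank RFX3 peaks had RFX1 in place of 97.4%, by construction fewer. Of the RFX3 peaks of high rank without RFX2, none was lost when no RFX2 peak was allowed within 500 bp. Spearman's rho was 0.495 by fold, 0.464 with folds of at least 4 and 0.463 with 50% overlap. The width ratio was 1.18 with 50% overlap and 1.31 in pairs with both peaks in the better 50%, where summits were 14.5 bp apart and 94.0% lay within 50 bp.

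With gene windows of 500 bp, 5 kb, or all genes of the annotation, the gene-end share of RFX3 peaks was 26.4%, 43.5% and 35.5% with RFX2 and 11.4%, 24.0% and 19.3% without; in high-rank peaks it was 29.6%, 46.8% and 39.0% with RFX2 and, at 5 kb and for all genes, 35.2% and 31.2% without. The order did not change under these windows. By fold rank, added after seeing the data, it was 6.70% with and 4.18% without RFX2, with overlapping intervals. RFX1 overlapped 90.9% of high-rank peaks without RFX2 at 50% overlap and 80.7% by fold rank. The median RFX1 −log10 q with and without RFX2, in alternatives also added later, was 83.5 and 32.1 by fold rank, 124 and 70.3 at gene ends, 94.2 and 44.2 away from them; in the second step of 250 RFX3 ranks it was 61.4 without. In each of these the value with RFX2 was the higher. Unknown depth limits the rest: a weak RFX2 site may not be listed.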
